A study of Mus musculus with 4 samples.

Results

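Sertoli cells are the somatic cells of the seminiferous tubules that surround and feed the developing germ cells. Here 10 genes that define Sertoli cells or encode their products were followed in adult mouse testis: the transcription factor genes Sox9, Wt1, Gata1, Gata4 and Rhox5, the secreted protein genes Clu and Trf, the germ cell ligand genes Kitl and Gdnf, and Aard, a Sertoli cell marker. They were chosen by name, and all 10 were found among the 22073 genes of the deposited table. The right testis of 2 hemicastrated KM mice, which had lost the left testis by surgery before puberty, was compared with that of 2 KM mice given sham surgery at the same time. KM (Kunming) is an outbred mouse stock, and the mice of both groups were kept to maturity. Their ages at surgery and at sampling were not stated in the sources used here. By the design text there were 2 mice per group, by the protocol text 3, and 4 libraries were analysed. The extraction protocol speaks of RNA from 4 individuals, so each library was taken as 1 mouse, an assumption on which n = 2 and every SD rest.

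Sertoli cells divide until about puberty and then stop, so their number in the adult is largely set before maturity. Sox9, Wt1 and Gata4 act in the making and upkeep of the Sertoli cell fate. In the adult the cells answer to follicle-stimulating hormone and testosterone, close the blood-testis barrier, carry iron and other nutrients to germ cells, and signal to spermatogonia. The comparison asks whether the remaining testis holds these transcripts at another level in the adult. In whole tissue, fewer Sertoli cells and less RNA per Sertoli cell cannot be told apart.

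All values are FPKM, fragments scaled to transcript length and library size, so levels of different genes can be set side by side. Read depth is unknown, and the precision of a value shows only in how far the 2 libraries of a group lie apart. Differences are log2 fold changes, hemicastrated minus control, on log2(FPKM + 1), a scale that understates the change of low genes. They were tested with limma over the 11343 genes whose mean FPKM reached 1, and a gene was called at a Benjamini-Hochberg adjusted p under 0.05. The 2 libraries of a group are called its pair, with no link between groups. With 2 libraries against 2, the smallest two-sided p of an exact permutation test is 0.33. The p of limma can go lower because it comes from a t distribution, with a spread that borrows from other genes.

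The tissue label was checked on marker lists. The 5 germ cell genes, led by Prm1, summed to 9494 and 10570 FPKM in the control pair and to 11013 and 11450 FPKM in the hemicastrated pair. The 7 Leydig cell genes, led by Insl3, summed to 1629 and 1528 against 1897 and 1795 FPKM. Most of the Leydig sum was Insl3, at 1272 and 1232 against 1609 and 1484 FPKM. Of the 7 Leydig log2 fold changes 5 were negative, with a median of -0.13. The germ cell and Leydig sums were both higher in both hemicastrated libraries, and no gene of either list was called. The list of epididymis genes set the groups apart. Its summed level was 981 and 1317 FPKM in the control pair and 3.72 and 5.29 FPKM in the hemicastrated pair. Of its 9 genes 5 were tested and 4 were called lower (Crisp1, Cd52, Ces5a and Adam7), beside 1.19% of all tested genes. Lcn5 and Lcn8, which mark the proximal epididymis, were listed at 0 in all 4 libraries. Rnase10 of the same list was at 2.02 and 1.28 FPKM in the control pair and at 1.585 and 1.698 FPKM in the hemicastrated pair. It was not called (log2 fold change 0.007, limma adjusted p = 0.995). Of 6 genes of duct and rete epithelium 4 were tested and 3 were called lower, with sums of 22.0 and 22.7 against 10.9 and 8.51 FPKM. Of 7 smooth muscle genes 4 were called lower, with sums of 341 and 302 against 228 and 257 FPKM. Most of the smooth muscle sum was Actg2, at 218.7 and 213.2 against 183.5 and 209.3 FPKM, which was not called. The hemicastrated means of the 4 called genes stood at 0.15 to 0.39 of their control means. Macrophage and endothelium genes had 0 calls among 5 and 1 tested, with sums of 45.8 and 42.8 against 36.8 and 33.8 FPKM and of 8.59 and 5.63 against 7.06 and 6.76 FPKM. The 10 Sertoli cell genes summed to 389 and 373 FPKM in the control pair and to 414 and 365 FPKM in the hemicastrated pair, and these values overlap between the groups. Clu alone made up 76% to 80.2% of this sum and Clu with Aard 91.4% to 93.2%, so the sum says little of the other 8 genes.

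**Figure D1:**
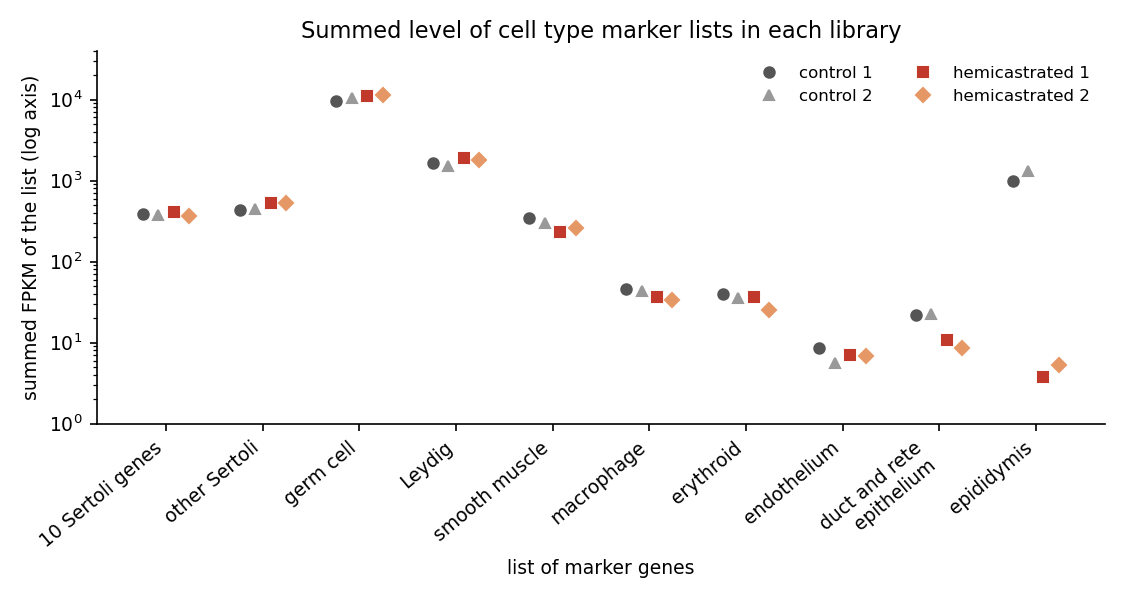
Summed FPKM (log axis) of each marker list in each of the 4 libraries, with 1 symbol per library. The epididymis list stands at 981 and 1317 FPKM (control pair) against 3.72 and 5.29 FPKM, while the sums of the 10 Sertoli cell genes overlap between the groups.

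No Sertoli cell identity or product gene passed the test between the groups, which does not show that their levels were equal. Of the 10 genes, 8 passed the filter on low values and 2 (Sox9 and Gdnf) did not. In limma, 0 of the 8 were called lower, against 1.19% of all tested genes (135 of 11343), and 0 were called higher, against 0.106% (12 of 11343). With no filter all 10 were tested and 0 were called, beside 117 lower and 3 higher calls among 18587 genes. At an unadjusted limma p under 0.05 the count in the filtered fit was 1 of the 8 (Aard), against 1191 of all 11343 tested genes. With 8 genes, 1 is near that share. The median log2 fold change was 0.09 over the 8 tested genes and 0.02 over all 10, beside -0.03 over all tested genes. The sign was positive for 5 of the 10 genes and for 43.4% of all tested genes. The libraries of the groups did not overlap for 4 of the 10 genes (Aard, Rhox5, Gata4 and Gdnf), against 39.3% of all genes above 0 in a library. Of the 8 tested genes it was 3, against 41.2% of all tested genes. Both shares are close to the background. Over all tested genes the counts of lower and higher calls were 78 and 0 without control 2. In that fit 1000 genes had an unadjusted p under 0.05. The count of higher calls was 4 without control 1, 24 without hemicastrated 1 and 26 without hemicastrated 2.

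Levels of the 10 genes spanned a wide range. Clu was highest, at a mean of 300.3 FPKM over the 4 libraries, followed by Aard at 54.3 FPKM, and each stood above the next gene in every library. Wt1 (9.19 FPKM), Trf (6.07), Rhox5 (4.92), Gata4 (3.92), Gata1 (3.48) and Kitl (2.32) followed, and the range of each of these overlapped that of its neighbour. Sox9, at a mean of 0.859 FPKM, lay below the lowest Kitl value in all 4 libraries. Gdnf, at 0.108 FPKM, lay below every other gene of the list.

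**Figure D2:**
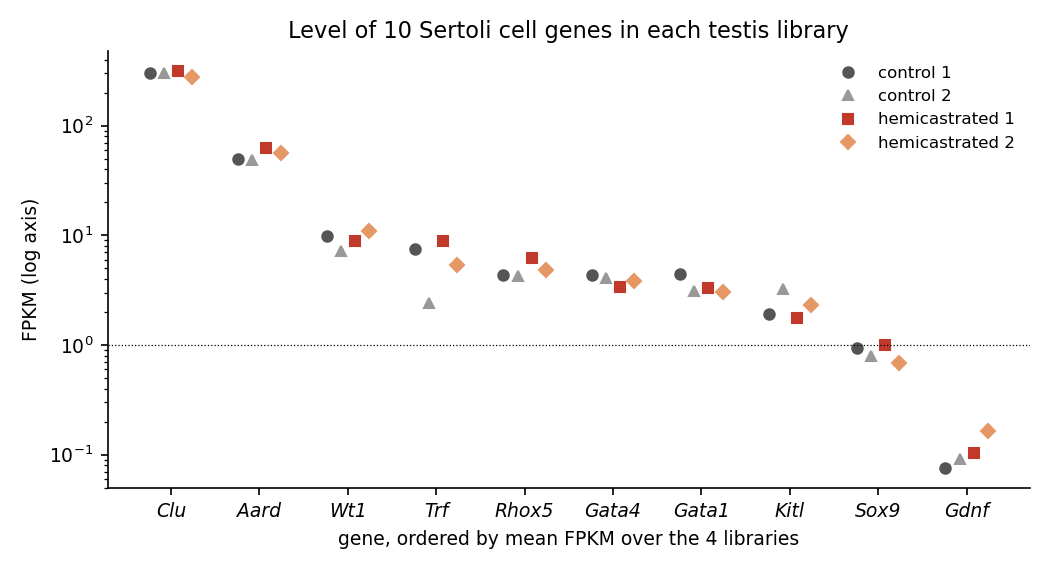
FPKM (log axis) of the 10 genes in each library, ordered by the mean over the 4 libraries. The dotted line marks 1 FPKM, the mean that a gene had to reach to be tested. Clu and Aard stand apart from the rest, Sox9 and Gdnf lie below the line on average, and the widest spread within a group is that of Trf in the controls.

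Sox9 encodes the transcription factor that starts Sertoli cell differentiation in the fetal gonad and stays on in adult Sertoli cells (ENSMUSG00000000567, chromosome 11, 112782224 to 112787760, GRCm38). Its level was 0.945 and 0.791 FPKM in the control pair and 1.01 and 0.691 FPKM in the hemicastrated pair. Both the highest and the lowest value belong to hemicastrated mice, with the controls between them. Its mean missed the filter. In the limma fit with no filter its log2 fold change was -0.02 (95% interval -0.37 to 0.33, adjusted p = 0.979). Sox8, a close relative that can act in its place, was at 1.46 and 1.66 FPKM against 1.48 and 1.58 FPKM (log2 fold change -0.02).

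Wt1 encodes a zinc finger protein that Sertoli cells need to keep their identity (chromosome 2, 105126529 to 105173616). Its level was 9.78 and 7.20 FPKM (control pair) against 8.90 and 10.9 FPKM. Control 2 was lowest and hemicastrated 2 highest, and the groups overlapped. Between the groups it differed by a log2 fold change of 0.20 (95% interval -0.21 to 0.62, limma adjusted p = 0.743), and it was 0.40 without control 1, 0.007 without control 2, 0.34 without hemicastrated 1 and 0.074 without hemicastrated 2.

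Gata4 and Gata1 encode zinc finger factors that bind GATA sites in promoters of Sertoli cell genes. Gata4 is active in Sertoli and Leydig cells, and Gata1 in Sertoli cells and in blood cell precursors. Gata4 (chromosome 14, 63198922 to 63271692) was at 4.37 and 4.07 FPKM in the control pair and at 3.40 and 3.87 FPKM in the hemicastrated pair. Both hemicastrated values lay below both control values, by a margin smaller than the spread within the hemicastrated group. A log2 fold change of -0.17 was not past the threshold (95% interval -0.49 to 0.15, limma adjusted p = 0.717). It was -0.099 without hemicastrated 1 and -0.25 without hemicastrated 2.

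Gata1 (X chromosome, 7959260 to 7978071) was at 4.42 and 3.14 FPKM in the control pair and at 3.31 and 3.04 FPKM in the hemicastrated pair. Control 1 stood above the other 3 libraries, which lay close together. The log2 fold change was -0.18 (95% interval -0.59 to 0.23, limma adjusted p = 0.772), and without control 1 it was 0.013. Erythroid genes, whose precursors also use Gata1, summed to 40.3 and 35.9 FPKM (control pair) against 36.6 and 25.4 FPKM. None of the 3 tested erythroid genes was called, and Hba-a2 was listed at 0 in all 4 libraries. Their part in the Gata1 values was not tested. The ratio of Gata4 to Gata1 was 0.987 and 1.30 in the control pair and 1.03 and 1.27 in the hemicastrated pair, and so did not separate the groups.

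Rhox5 encodes a homeobox factor on the X chromosome (37804842 to 37808876) that androgen switches on in Sertoli cells and that the epididymis also makes. It was at 4.37 and 4.28 FPKM in the control pair and at 6.20 and 4.84 FPKM in the hemicastrated pair. Both hemicastrated values lay above both controls, and the gap between the 2 hemicastrated libraries was wider than the gap between the groups. Between the groups the log2 fold change was 0.28 (SE 0.15, 95% interval -0.07 to 0.64, limma adjusted p = 0.581), and it ranged from 0.13 without hemicastrated 1 to 0.44 without hemicastrated 2. Rhox8, a gene of the same cluster that Sertoli cells also express, was at 2.83 and 2.71 against 3.69 and 3.06 FPKM (limma log2 fold change 0.21, adjusted p = 0.67). The epididymis list was lower where Rhox5 was higher. The germ cell sum and the Leydig sum, mostly Insl3, were higher there. The part of these lists in the Rhox5 values was not tested.

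Aard encodes an alanine- and arginine-rich protein of Sertoli cells (chromosome 15, 52040107 to 52045722). Its level was 49.9 and 48.6 FPKM in the control pair and 62.3 and 56.4 FPKM in the hemicastrated pair. The controls lay close together and both hemicastrated libraries stood above them, at group means of 49.2 ± 1.0 and 59.4 ± 4.1 FPKM (SD, n = 2 each). Its log2 fold change of 0.26 (SE 0.09, 95% interval 0.04 to 0.48) had an unadjusted limma p of 0.026 and an adjusted p of 0.382. It was therefore not called, and with each library left out in turn it lay between 0.19 and 0.33. The germ cell sum and the Leydig sum, mostly Insl3, were higher in the hemicastrated libraries. Sums of the epididymis, duct, smooth muscle and macrophage lists were lower there. The part of all these lists in the Aard values was not tested.

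Clu encodes clusterin, a chaperone-like glycoprotein that is among the main proteins Sertoli cells secrete (chromosome 14, 65968483 to 65981547). It was at 305.6 and 299.7 FPKM in the control pair and at 318 and 278 FPKM in the hemicastrated pair, above 98.5% of the tested genes or more in each library. The hemicastrated pair spans the control pair on both sides. The group means of 302.6 ± 4.2 and 298 ± 28.6 FPKM (SD, n = 2 each) differed by less than the spread of the hemicastrated libraries. Its log2 fold change was -0.03 (SE 0.09, 95% interval -0.25 to 0.20, limma adjusted p = 0.951), the narrowest interval but 1 among the 8 tested genes. Clu is also made by the epididymal epithelium, and its values overlapped between groups whose epididymis list sums were 981 and 1317 against 3.72 and 5.29 FPKM. The part of the epididymis in the Clu values was not tested. The ratio of Clu to Aard was 6.12 and 6.17 in the control pair and 5.11 and 4.92 in the hemicastrated libraries.

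Trf encodes transferrin, which Sertoli cells secrete to bring iron to germ cells behind the barrier (chromosome 9, 103204001 to 103230444). It was at 7.55 and 2.40 FPKM in the control pair and at 8.92 and 5.41 FPKM in the hemicastrated pair. Control 2 was far below the other 3 libraries, and the controls lay 3.15-fold apart. That gap is wider than the gap between the controls for 99.6% of the tested genes. Its log2 fold change of 0.57 had the widest interval among the 8 tested genes (95% interval -0.48 to 1.61, limma adjusted p = 0.717). It was 1.23 without control 1 and -0.10 without control 2.

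The Trf values carry a second uncertainty. The gene model Gm20425 (chromosome 9, 103190208 to 103230307) runs along the same strand through the exons of Trf, and 58.5% of all 50-base words in Trf transcripts also occur in it. Fragments from these exons could be credited to either gene. Gm20425 was at 6.76 and 4.03 FPKM in the control pair and at 8.58 and 5.01 FPKM in the hemicastrated pair, the same order of libraries as Trf. The sum of both genes was 14.3 and 6.43 FPKM in the control pair and 17.5 and 10.4 FPKM in the hemicastrated pair, so control 2 stayed lowest and hemicastrated 1 highest. Exons of the other 9 genes overlap no other gene in the annotation, and their transcripts share no 50-base word with another gene.

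Kitl encodes KIT ligand (stem cell factor), the signal from Sertoli cells to the KIT receptor of differentiating spermatogonia. It is made in 2 forms by splicing. The form that keeps exon 6 carries the site at which the protein is cut to a soluble factor, and the form that skips it stays mainly on the cell surface, where spermatogonia depend on it. The exon is chromosome 10, 100080857 to 100080940 (GRCm38, plus strand), has 84 bases and lies wholly in the coding sequence. The lines below show it because the deposited value is per gene and adds both forms. Capitals mark the exon and lower case the 15 bases of each flanking exon, from the GENCODE transcripts Kitl-202 and Kitl-201.
Kitl with exon 6: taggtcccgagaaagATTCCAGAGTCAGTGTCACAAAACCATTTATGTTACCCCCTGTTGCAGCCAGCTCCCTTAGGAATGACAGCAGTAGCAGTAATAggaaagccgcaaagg
Kitl without exon 6: taggtcccgagaaagggaaagccgcaaagg

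Kitl as a whole (chromosome 10, 100015630 to 100100416) was at 1.91 and 3.25 FPKM in the control pair and at 1.78 and 2.32 FPKM in the hemicastrated pair. Control 2 was highest, and the hemicastrated libraries lay on either side of control 1. The log2 fold change of -0.21 was not past the threshold (95% interval -0.73 to 0.31, limma adjusted p = 0.795). It was -0.49 without control 1 and 0.0625 without control 2. The share of each splice form cannot be read from these values.

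Gdnf encodes glial cell line-derived neurotrophic factor, which keeps spermatogonial stem cells dividing (chromosome 15, 7810846 to 7837575). It was at 0.0755 and 0.0903 FPKM in the control pair and at 0.1025 and 0.165 FPKM in the hemicastrated pair. All 4 values were above 0 and both hemicastrated values lay above both controls, and its mean missed the filter. In the limma fit with no filter its log2 fold change was 0.07 (95% interval -0.06 to 0.19, adjusted p = 0.717), so it was not called. A pseudocount of 1 hides most changes at this level, and with 0.01 the log2 fold change was 0.60. The ratio of the means was 1.61.

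**Figure D3:**
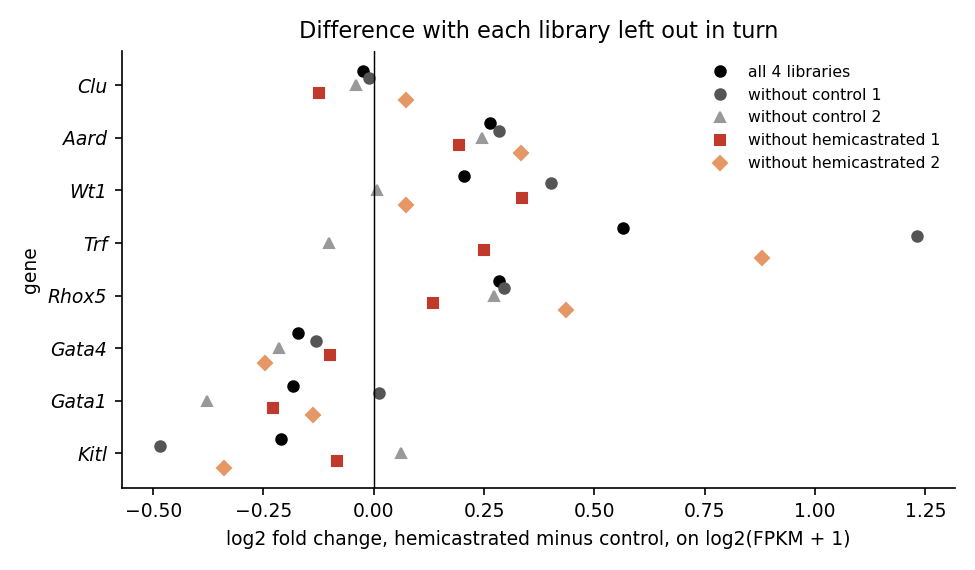
Log2 fold change (hemicastrated minus control, on log2(FPKM + 1)) of the 8 tested genes with all 4 libraries and with each library left out in turn. Trf runs from -0.10 to 1.23, Aard stays between 0.19 and 0.33, and Clu, Gata1, Trf and Kitl take both signs.

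Other genes of Sertoli cells, in a list of 24, were read in the same fit. Of the 20 that were tested, 0 were called lower and 0 higher, beside 1.19% and 0.106% of all tested genes. At an unadjusted limma p under 0.05 there were 2 of the 20, beside 1191 of all 11343 tested genes. The median log2 fold change was 0.03 over the 20 and -0.001 over all 24, with 12 of 24 positive. The 2 with the smallest p were the cystatin genes Cst12 and Cst9, with log2 fold changes of 0.73 (95% interval 0.40 to 1.06, limma adjusted p = 0.0923) and 0.67 (0.40 to 0.94, limma adjusted p = 0.0601). They alone in this list had intervals wholly on one side of 0. The labels do not pair libraries by replicate number. In a fit with that number as a block, both passed the threshold (limma adjusted p = 0.0179 for Cst12 and 0.0188 for Cst9). With robust hyperparameters Cst9 did (0.0381) and Cst12 did not (0.0709). With no filter on low values the limma adjusted p was 0.231 for Cst12 and 0.175 for Cst9. Under quantile normalization it was 0.168 and 0.117, and with no variance trend 0.178 and 0.14. The germ cell sum and the Leydig sum, mostly Insl3, were higher in the hemicastrated libraries. Sums of the epididymis, duct, smooth muscle and macrophage lists were lower there. The part of all these lists in the cystatin values was not tested.

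Hormone and structure genes of the list lay closer to 0. Inha, which encodes the alpha subunit of inhibin, was at 31.8 and 29.6 FPKM against 34.1 and 37.2 FPKM (limma log2 fold change 0.21, adjusted p = 0.537). The intermediate filament gene Vim was at 21.8 and 17.5 against 16.8 and 15.5 FPKM (limma log2 fold change -0.26, adjusted p = 0.564), and other somatic cells also express it. Mro, which encodes maestro, was at 5.21 and 5.09 against 6.08 and 6.49 FPKM (limma log2 fold change 0.24, adjusted p = 0.554). The gene of the protease Ctsl, which Sertoli cells release, was at 105.6 and 102.3 against 106.6 and 103.5 FPKM (log2 fold change 0.01). The barrier claudin gene Cldn11 was at 32.4 and 28.4 against 28.3 and 27.9 FPKM (log2 fold change -0.10). The glutathione transferase gene Gstm6 was at 15.6 and 14.5 against 13.0 and 13.6 FPKM (limma log2 fold change -0.17, adjusted p = 0.653).

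Genes that receive the signals or work with the factors were read from a list of 12, of which 8 were tested. None was called in limma, beside 1.3% of all tested genes. At an unadjusted limma p under 0.05 there was 1 of the 8, beside 1191 of all 11343 tested genes. Of the 8 log2 fold changes 1 was positive, with a median of -0.08. Of the receptors for the ligands, Kit was at 2.89 and 1.63 FPKM (control pair) against 2.48 and 1.83 FPKM (log2 fold change -0.03). Gfra1, which encodes the binding receptor for GDNF, was at 1.55 and 1.35 against 0.945 and 1.26 FPKM (log2 fold change -0.22, 95% interval -0.59 to 0.15). Ret, the signalling receptor for GDNF, was at 0.269 and 0.236 against 0.227 and 0.207 FPKM, below the filter. Gfra1 and Ret were lower in both hemicastrated libraries than in both controls. Over the whole list the groups did not overlap for 4 of the 11 genes above 0 in a library, beside 39.3% of all such genes.

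Of the genes that GDNF activates in spermatogonial stem cells, Etv5 had a log2 fold change of -0.10 and Lhx1 of -0.24, with the libraries of the groups overlapping for both. Bcl6b, at a mean under 1 FPKM, was not tested. Lhx1 was at 1.82 and 1.46 FPKM (control pair) against 0.933 and 1.58 FPKM, with hemicastrated 1 lowest. Of the GATA cofactor genes, Zfpm2 was at 0.959 and 1.34 against 1.04 and 1.16 FPKM (log2 fold change -0.03), and Zfpm1 was listed at 0 in all 4 libraries.

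Tfrc, which encodes the main cell surface receptor for transferrin, was at 2.89 and 3.21 FPKM (control pair) against 2.12 and 2.199 FPKM. Both hemicastrated values lay below both controls. Its log2 fold change of -0.36 (95% interval -0.68 to -0.03) had an unadjusted limma p of 0.0353 and an adjusted p of 0.42, so it was not called. Sums of the epididymis, duct, smooth muscle and macrophage lists were lower in the same libraries, and their part in the Tfrc values was not tested. The second transferrin receptor gene, Tfr2, was at 1.07 and 1.01 against 1.23 and 1.01 FPKM (log2 fold change 0.05).

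Lrp2 and Lrp8 encode receptors that take up clusterin. Lrp8 was at 5.37 and 5.23 FPKM (control pair) against 5.28 and 4.88 FPKM (log2 fold change -0.05). Lrp2, which encodes megalin, a receptor of absorbing epithelia such as that of the epididymis, stood at 1.81 and 1.89 FPKM (control pair) against 0.0755 and 0.0594 FPKM. Both hemicastrated values were under 0.1 FPKM, and its mean over the 4 libraries missed the filter. In the limma fit with no filter on low values it was lower after hemicastration (log2 fold change -1.42, adjusted p = 0.0193). The epididymis and duct lists were lower in the same libraries, and their part in the Lrp2 values was not tested.

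**Figure D4:**
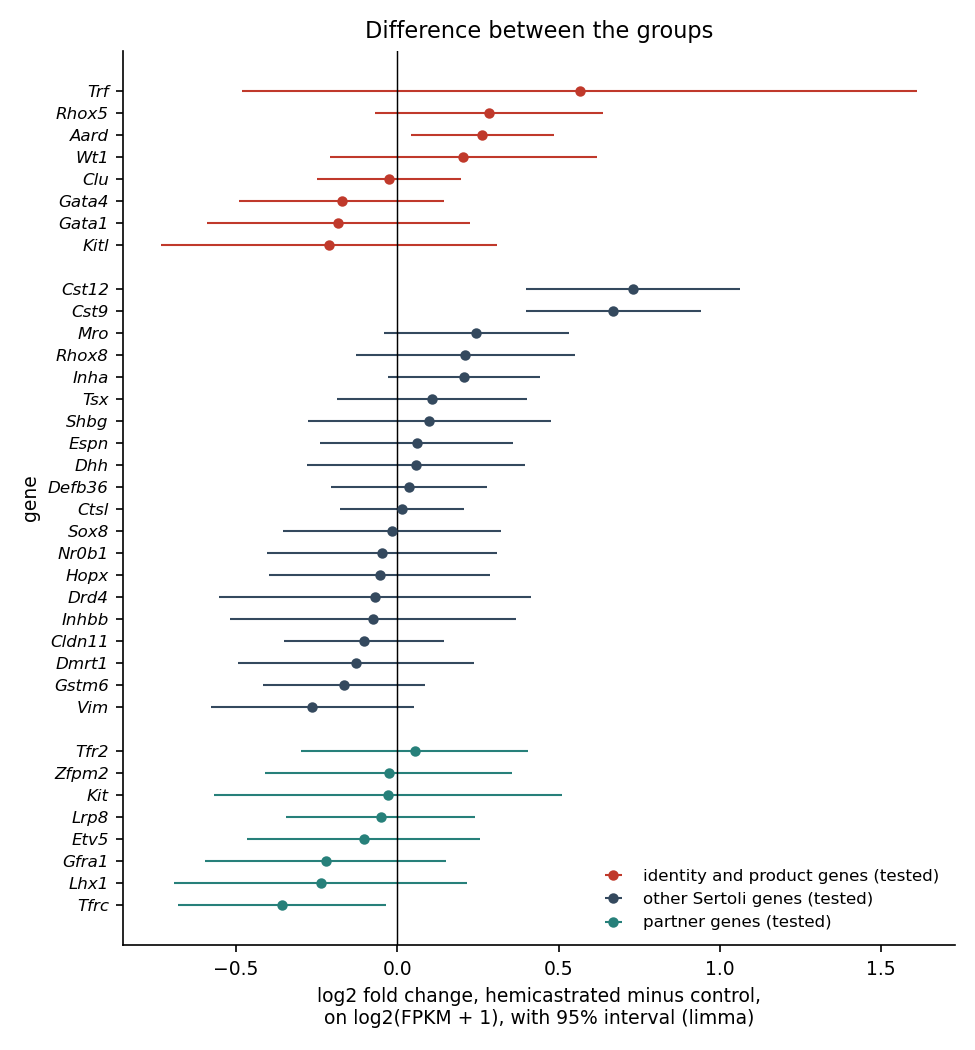
Log2 fold change (hemicastrated minus control, on log2(FPKM + 1)) with its 95% interval from limma for the tested genes of the 3 lists. Of the 8 identity and product genes, Aard alone has an interval clear of 0, from 0.04 to 0.48 and unadjusted, and Cst12, Cst9 and Tfrc are the others in the plot.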

How the data were processed

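Messenger RNA of the right testis of 4 mice was measured. Oligo(dT) beads were used to enrich mRNA, which was fragmented and copied from random primers for paired-end Illumina reads, with no step that marks the strand, per the labels' protocols. Although the molecule is labelled genomic DNA, the values were read as RNA. TopHat2 2.0.11, Cufflinks 2.2.1 and GRCm38 stand in the submitters' processing notes, with no roles, and no annotation was named in the sources used here. Per the file headers, the deposited values are FPKM, 1 per gene and library. An exact 0 can be a failed estimate.

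Symbols, positions and transcripts came from GENCODE M21 (GRCm38), which named 21806 of 22073 identifiers. Values plus a pseudocount of 1 were taken to log2 and fitted by group (limma 3.58.1, R 4.3.3; variance trend, no covariate), with two-sided p-values and the filter given in the report. Intervals are limma's and are not adjusted. The test was first tested on simulated data. Alternatives covered the pseudocount, the filter, scaling, the variance model, each library left out and the replicate number as a block. The 10 genes and all lists were chosen with earlier results of these data known. Named genes are the 10, up to 8 of the other Sertoli cell genes with the smallest p, the tested partner genes, and of each marker list up to 3 of the highest and the called ones by count. Sox8, Ctsl, Ret, Lrp2, Zfpm1, Bcl6b, Lcn5, Lcn8, Rnase10, Hba-a2, Adam7 and Gm20425 were named after their values were seen.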

Additional observations from a re-analysis of the deposited data

How the results depend on the processing

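No tested gene of the 10 was called under any of the 13 alternatives, with adjusted p from 0.261 to 0.997. The median over the 10 genes was 0.10 with a pseudocount of 0.1, 0.10 with 0.01 and 0.093 under quantile normalization, and -0.02 to 0.07 with a library left out. Filters, variance models and the block leave that median as it is by construction. Gdnf moved to 0.34 with a pseudocount of 0.1, 0.60 with 0.01 and 0.15 in TPM. With a library left out in turn, log2 fold changes ran from -0.12 to 0.072 for Clu, -0.38 to 0.013 for Gata1, -0.10 to 1.23 for Trf and -0.49 to 0.0625 for Kitl. With the filter at 5 FPKM, 4 of the 10 genes were tested.

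Same-numbered libraries did not deviate together (r = 0.01 across 11343 genes, which are not independent). With the replicate number as a block, 167 genes were called lower, 30 higher, and 2 of the other Sertoli cell genes higher. That last count was 1 with robust hyperparameters. Lower calls were 63 with the filter at 5 FPKM, fewer genes being tested, and 78 to 156 with a library left out. Higher calls were 7 with a pseudocount of 0.01, 3 with no filter, 7 with the filter at 5 FPKM and 0 to 26 with a library left out. With no filter, 1 partner gene (Lrp2) was called lower. The causes were not tested. Read depth is unknown, which limits what can be said of Sox9 and Gdnf.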

Other observations

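Promoter windows of 300 bases (250 before and 50 after the start, RefSeq on GRCm38.p6) matched 4 of the 10 genes, with 5 windows in all. GATA motifs were searched on both strands as AGATAA with its variant AGATAG, and as TGATAA with its variant TGATAG. They were found in 1 window, the second of Gdnf, with 2 overlapping matches, beside 29.8% of all 32851 windows. The SOX motif AACAAT was found once, in the Rhox5 window, beside 10.7% of all windows. The palindromic androgen receptor motif was found in none of the 5 windows and in 0.00913% of all windows. A match describes letters and is no site. Which starts were used in these testes was not tested. The RefSeq start of Gata1 lies inside the GENCODE gene, 10161 bases after its first base, and that of Rhox5 lies 50234 bases before the GENCODE gene.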
